A study of Mus musculus with 8 samples.

Results

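Retinal ganglion cell (RGC) nuclei called melanopsin-type here were picked out of single-nucleus RNA sequencing of the mouse retina by the genes they carried. A barcode was taken as an RGC nucleus when it had at least 2000 unique molecular identifiers (UMIs, each standing for 1 captured RNA molecule), no more than 5% of them from mt- genes, at least 2 UMIs of Rbpms and Slc17a6 together, and at most 1 UMI of Gad1, Gad2 and Slc6a9 together. An RGC nucleus was a member, called gated here, when at least 2 of the 3 genes Opn4, Eomes and Tbx20 each had 1 UMI or more. The rule held for 573 of 23059 RGC nuclei, and the remaining 22486 were the other RGC nuclei against which they were compared. The name is that of the rule, as 154 of the 573 had no Opn4 UMI and are described apart below. These 8 genes were selected on and their levels are descriptions only.

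The study asked what the loss of the mechanosensitive channel Piezo2 from the oligodendrocyte lineage does to the visual pathway. All mice were female, 120 days old and homozygous for a floxed Piezo2 allele (Piezo2f/f). The 4 control libraries came from Piezo2f/f mice without Cre and the 4 conditional knockout (cKO) libraries from Olig2-cre;Piezo2f/f mice, in which Cre is knocked into the Olig2 gene and is meant to act in oligodendrocyte lineage cells, not in RGCs. Each library pooled 6 retinae and was sorted for nuclei stained for NeuN and RBPMS, so a library, not an animal, was the replicate.

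Intrinsically photosensitive RGCs carry their own photopigment, melanopsin, encoded by Opn4, and answer light directly as well as through rods and cones. Light-activated melanopsin works through Gq-family G proteins, phospholipase C and TRPC channels, a cascade more like that of the fly eye than that of rods. These cells set the circadian clock and the pupil reflex, and some release the peptide PACAP, encoded by Adcyap1. Eomes (also Tbr2) and Tbx20 are T-box transcription factors needed for making or keeping them. The several types differ in how much melanopsin they hold.

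The libraries held between 35697629 and 60088630 UMIs each over all listed barcodes. Between 50 and 96 gated nuclei came from each library, and their summed counts ran from 388450 to 1047599 UMIs, against 14953986 to 33119889 for the other RGC nuclei. Median UMIs per nucleus were 5173 to 12055.5 in gated nuclei and 4835 to 10910 in the other RGC nuclei of the same 8 libraries. Of the RGC barcodes, 61 occurred in 2 or more libraries, and 0 of them were gated.

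The members were not alike in the genes that chose them. All 3 marker genes were seen in 170 nuclei, Opn4 with Tbx20 in 130, Opn4 with Eomes in 119 and Eomes with Tbx20 in 154. Just outside the rule lay 1337 RGC nuclei with exactly 1 of the 3 genes, of which 411 had Opn4 alone, 475 Eomes alone and 451 Tbx20 alone. In addition, 31 members had exactly 2 UMIs of Rbpms and Slc17a6 together, and 27 barcodes that met the other conditions had only 1. Another 79 members had the single inhibitory-gene UMI that was allowed, and 16 barcodes were left out because they had 2. The shallowest member had 2622 UMIs and so lay above the depth limit.

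Opn4 UMIs were few and unevenly spread. Of the 573 gated nuclei, 154 had no Opn4 UMI, 160 had 1, 96 had 2, 110 had 3 to 5 and 53 had more than 5, with a maximum of 17. The 53 nuclei with more than 5 were 9.25% of the members and held 37.6% of their 1215 Opn4 UMIs. The summed Opn4 level was 188, 181, 244 and 210 CPM (counts per 1000000 UMIs) in control libraries 1 to 4 and 235, 365, 201 and 155 CPM in cKO libraries 10 to 13. Library 11 was the highest, and the 2 genotypes overlapped.

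**Figure D1:**
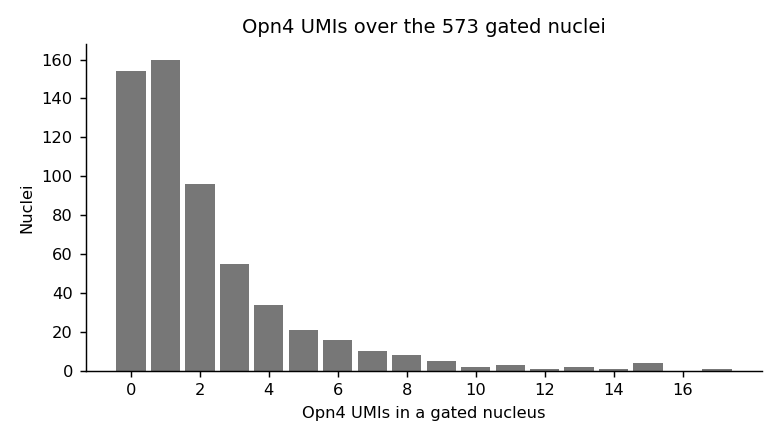
Number of gated nuclei (vertical axis) by the number of Opn4 UMIs in a nucleus (horizontal axis), over all 8 libraries. The bar at 0 holds 154 nuclei and the bar at 1 holds 160, and a thin tail reaches 17.

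A single UMI of a marker can also come from free RNA in the droplet. Barcodes with 10 to 500 UMIs, which mostly hold no nucleus, carried Opn4 at 32.6, Eomes at 23.1 and Tbx20 at 12.5 CPM. At least 2 of the 3 genes were seen in 0.319% of 1568 barcodes of amacrine type (3 or more inhibitory-gene UMIs and at most 1 RGC-gene UMI), against 2.48% of RGC nuclei. Opn4 was seen in 1.15% of amacrine-type barcodes and 3.60% of RGC nuclei, Tbx20 in 0.510% and 3.92%. Eomes alone was no guide, as it was seen in 8.29% of amacrine-type barcodes and 3.98% of RGC nuclei. Its level in barcodes with 10 to 500 UMIs was nonetheless below that of Opn4. The source of the Eomes UMIs in amacrine-type barcodes was not tested.

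The gated nuclei had more Trpc7, Gna14, Gldn, Rasgrp1, Igf1 and Adcyap1 than the other RGC nuclei and less Foxp2, Bnc2 and Bcl11b. Summed counts per library were compared with edgeR's quasi-likelihood test with the library as a block. A gene was called when its Benjamini-Hochberg adjusted p was below 0.05 and its log2 fold change was beyond 0.5 either way. Of 15860 genes tested, 1201 (7.57%) were called higher and 1135 (7.16%) lower in gated nuclei, and the median log2 fold change over all genes was -0.02. When every nucleus was thinned to 2000 UMIs before the rule was applied, 110 nuclei were left as gated, 151 genes were called higher and 607 lower, and that median was -0.46. Only libraries with more than 10 gated nuclei entered this fit. Control library 4 and cKO libraries 10 and 13, with 8, 10 and 6, were therefore left out of it, as of every fit of thinned counts.

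Of the cascade, the channel Trpc7 and the G protein subunit Gna14 stood out. Trpc7 was at 260, 309, 247 and 353 CPM in the gated nuclei of control libraries 1 to 4 and at 362, 207, 243 and 194 CPM in those of cKO libraries 10 to 13. In the other RGC nuclei Trpc7 was between 3.90 and 5.61 CPM in every library, so no library came near overlapping. The log2 fold change was 5.91 (SE 0.10, adjusted p = 8.12e-39, edgeR). Gna14, a Gq-family alpha subunit, was at 62.0 to 173 CPM in gated nuclei and 1.10 to 3.81 CPM in the others, a log2 fold change of 5.70 (SE 0.16). Trpc6, a channel that melanopsin signalling also uses, rose from 38.5 ± 2.84 to 104 ± 21.6 CPM (SD, n = 8 libraries), a log2 fold change of 1.42.

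Of the 13 tested genes of a list of 14 for melanopsin signalling (G proteins, phospholipases, channels, arrestins and kinases), 3 rose and 1 fell, against 7.57% and 7.16% of all genes, and the list's median log2 fold change was 0.30. Plcb4, the phospholipase usually placed downstream of melanopsin, was at 385 to 440 CPM in gated and 303 to 341 CPM in other RGC nuclei. It was higher in all 8 libraries, but its log2 fold change of 0.32 was within the threshold. It passed at 0.62 when all 3 marker genes were required and was -0.22 in counts thinned to 2000 UMIs. Plcb1, a related phospholipase, fell in all 8 libraries, from 696 ± 48.7 to 213 ± 40.2 CPM, a log2 fold change of -1.73. Gnaq (log2 fold change 0.15) and Gna11 (0.02), the widely expressed Gq-family subunits, were not called.

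Of 10 genes that the rule did not use and that are listed for the identity of these cells, all 10 were tested, 7 rose, 2 fell and 1 was not called. Over all genes 7.57% rose and 7.16% fell. The list's median log2 fold change was 2.05. Igf1, a growth factor, was at 429 to 654 CPM in gated nuclei and 84.5 to 102 CPM in the others (log2 fold change 2.58). Rasgrp1, an exchange factor for Ras, was at 61.2 to 108 CPM against 2.33 to 5.79 CPM (log2 fold change 4.33). Adcyap1 was at 67.5 to 124 CPM against 12.2 to 18.5 CPM (log2 fold change 2.55). None of these 3 genes overlapped between gated and other nuclei in any library. Nmb, a peptide of the bombesin family, rose by 1.55, Irx1, a homeobox factor, by 1.32, and Gem, a small GTP-binding protein, by 4.31 on the log2 scale. Serpine2, a protease inhibitor, and Anxa2, an annexin, were the 2 that fell, with log2 fold changes of -1.43 and -0.58. Dkk3 had a log2 fold change of 0.12 and was not called. In counts thinned to 2000 UMIs Nmb (log2 fold change 2.02) and Serpine2 (-1.66) kept folds at least as large but were no longer called. Serpine2 (-0.49) was also not called when the gate was 1 Opn4 UMI or more.

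**Figure D2:**
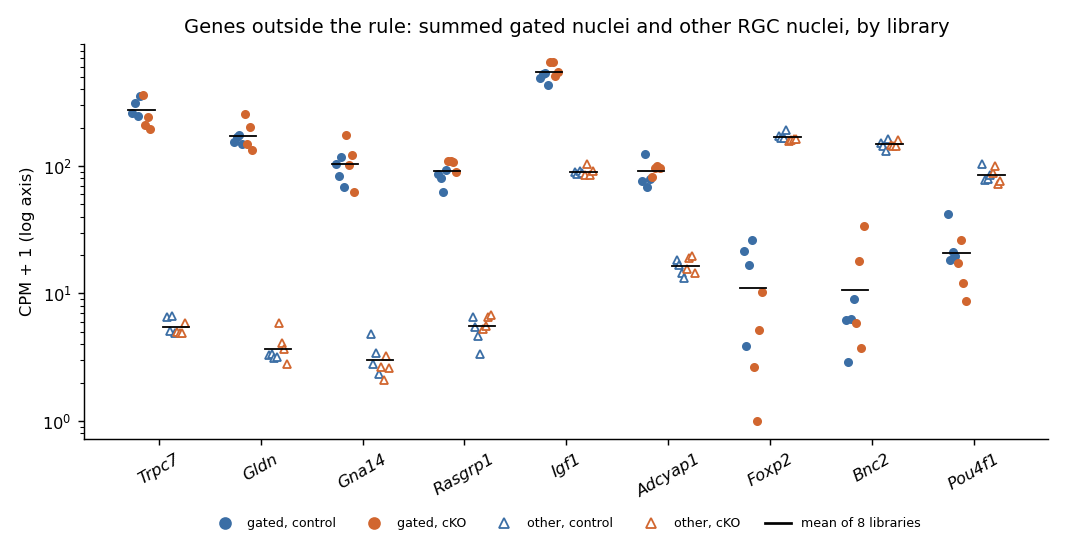
Level of 9 genes that the rule did not use, as CPM + 1 on a log axis, in summed gated nuclei (filled circles) and other RGC nuclei (open triangles). Each point is 1 of 8 libraries, blue for control and orange for cKO, and black lines are means. For the 6 genes on the left all gated points lie above all other points, and for the 3 on the right all lie below.

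The 10 genes with the largest rise, by a rule that asked for at least 20 CPM and the same direction in all 8 libraries, were Gldn, Trabd2b, Trpc7, Baiap3, Gldnos, Gna14, Hpse2, Entpd1, Cd1d1 and Colec12. Gldn encodes gliomedin, a secreted and membrane-bound protein that clusters sodium channels at nodes of peripheral nerve. It was at 154, 167, 173 and 148 CPM in control and 253, 148, 203 and 133 CPM in cKO gated nuclei, and at 1.78 to 4.85 CPM in the others. Its log2 fold change was 6.03 (SE 0.11, adjusted p = 5.02e-38, edgeR). Gldnos lies on the opposite strand and overlaps Gldn on chromosome 9, so its own rise (log2 fold change 5.83) may share reads with it if strand was not used in counting. Trabd2b, a protease of Wnt proteins, rose by 5.99, Baiap3, a factor in dense-core vesicle release, by 5.86, and Hpse2, a relative of heparanase, by 5.39 on the log2 scale. Entpd1, which breaks down extracellular ATP, was at 34.9 ± 9.84 CPM against 1.16 ± 0.273 CPM (log2 fold change 4.90).

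Under the same limits of 20 CPM and 8 of 8 libraries, the 10 genes that fell most were 3 transcription factors, a phosphodiesterase, a myosin and 5 long noncoding RNAs. Foxp2, a forkhead factor that marks the F-type RGCs, was between 0 and 25.3 CPM in gated nuclei and between 157 and 191 CPM in the others. Its log2 fold change was -4.10 (SE 0.17, adjusted p = 6.91e-25, edgeR). Bnc2, a zinc finger factor, was at 1.91 to 32.5 CPM against 130 to 162 CPM (log2 fold change -4.06), and Bcl11b, another zinc finger factor, had a log2 fold change of -3.97. Pde5a, a phosphodiesterase for cyclic GMP, had -3.79 and Myo5b, an unconventional myosin, -3.52. D130009I18Rik, Gm12027, D030068K23Rik, 9130024F11Rik and Gm43507 were the long noncoding RNAs, and Gm43507 (-3.61) kept its direction but was not called in counts thinned to 2000 UMIs.

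Of 17 genes listed for other RGC subclasses, all were tested, 13 fell and 1 rose, where 7.16% and 7.57% of all genes did, with a median log2 fold change of -2.05. The genes that fell included Satb1 (log2 fold change -1.81), Tbr1 (-2.05) and Cartpt (-1.53). Spp1, which encodes osteopontin and marks alpha RGCs, was the exception, at 66.9 to 209 CPM in gated and 11.6 to 40.5 CPM in other RGC nuclei (log2 fold change 2.06).

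Among 16 genes common to RGCs, 3 rose and 6 fell, against 7.57% and 7.16% of all genes, and the median log2 fold change was -0.07. Pou4f1 (Brn3a), a POU factor of most RGCs, was at 7.75 to 41.2 CPM in gated and 71.0 to 102 CPM in other nuclei, a log2 fold change of -2.18. Isl2, a LIM homeobox factor, had a log2 fold change of -3.69 and Pou4f3 (Brn3c) -3.02. Pou4f2 (Brn3b), by contrast, was at 32.8 ± 5.31 CPM against 25.4 ± 2.63 CPM and was not called (log2 fold change 0.39). Ebf2 and Ebf3, helix-loop-helix factors, rose by 1.19 and 0.83, and Nefh, a neurofilament, by 0.61 on the log2 scale. In counts thinned to 2000 UMIs Pou4f1 (-1.25), Ebf2 (0.37) and Isl2 kept their direction but were not called.

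Of 14 listed receptors for neuromodulators, 11 were tested, 4 rose and 5 fell, beside 7.57% and 7.16% of all genes. Oprm1, the mu opioid receptor, was at 108 to 177 CPM in gated and 24.8 to 34.6 CPM in other nuclei, a log2 fold change of 2.39. Drd1, a dopamine receptor, rose by 0.88, Adcyap1r1, a receptor for PACAP, by 0.94 and Htr7, a serotonin receptor, by 1.23 on the log2 scale. In counts thinned to 2000 UMIs neither Drd1 (log2 fold change 1.11, adjusted p = 0.402, edgeR) nor Adcyap1r1 (0.12, adjusted p = 0.970) was called. Drd1 (0.44) was also not called when the gate was 1 Opn4 UMI or more. Chrm3 and Chrm1, muscarinic acetylcholine receptors, had log2 fold changes of -1.79 and -2.08. Of 4 HCN pacemaker channel genes, all tested, 1 rose and 0 fell, where 7.57% and 7.16% of all genes did. It was Hcn3, which rose by 0.74 on the log2 scale, and this turned to -1.51 in counts thinned to 2000 UMIs. The 4 summed were lower in gated nuclei with no overlap, at 410 to 534 CPM against 563 to 665 CPM in other nuclei.

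Of 19 genes of the circadian clock, all tested, 5 fell and 1 rose, against 7.16% and 7.57% of all genes, and the median log2 fold change was -0.26. Rora, a nuclear receptor that drives Bmal1, was at 2354 ± 252 CPM in gated and 3986 ± 263 CPM in other nuclei (log2 fold change -0.78). Npas2 (-0.98), Hlf (-0.86), Dbp (-0.57) and Nr1d1 (-0.51) were the others that fell, and Per1 was the one that rose (0.69). In counts thinned to 2000 UMIs Npas2 (-1.13), Hlf (-0.61) and Per1 (0.60) kept their direction but were not called. Per1 (0.44) was also not called when the gate was 1 Opn4 UMI or more. Of the T-box factors other than the 2 in the rule, 6 of 15 were tested, and Tbx5 rose (0.73) while Tbr1 (-2.05) and Tbx2 (-0.88) fell.

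Of 33 tested genes listed for amacrine, bipolar, photoreceptor, Mueller glia, endothelial, horizontal, microglia and oligodendrocyte lineage cells, 2 rose and 5 fell in gated nuclei, where 7.57% and 7.16% of all genes did. The 2 were Prkca (log2 fold change 0.83), a protein kinase C, and Onecut1 (1.07), a transcription factor that RGCs also make. The 7 summed amacrine markers were at 282 to 415 CPM in gated and 431 to 542 CPM in other nuclei. The 7 summed bipolar markers were at 271 to 420 CPM in gated and 169 to 224 CPM in other nuclei, and the 3 horizontal markers at 110 to 180 CPM against 71.0 to 92.4 CPM, so both sums were higher in gated nuclei with no overlap. These lists hold Prkca and Onecut1. The 9 summed photoreceptor markers overlapped, at 204 to 1312 CPM against 275 to 776 CPM. Mbp, the myelin basic protein gene, was at 3.29 ± 1.89 CPM against 17.1 ± 2.44 CPM (log2 fold change -2.51), and the oligodendrocyte factors Olig1 and Olig2 were at 0 in gated nuclei. In counts thinned to 2000 UMIs Mbp and Onecut1 (0.57) kept their direction but were not called.

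As Eomes and Tbx20 bind T-box sites, the promoters of genes that rose with them were searched for the core AGGTGTGA on both strands, from 250 bases before to 50 after the start of the gene's canonical transcript (GRCm39). It was in 0.862% of 15775 promoters of tested genes, in 1.34% of 1192 promoters of genes called higher and in 1.07% of 1124 of genes called lower. The promoters of Opn4 and of the 10 genes with the largest rise held no match. Among the promoters of the 10 genes that fell most, 1 held a match, that of 9130024F11Rik (log2 fold change -3.78). The 250 bases before that start are shown for Trpc7 and Gna14, the cascade genes with the largest rise, and for Spp1, a listed gene with a match, in capitals, that starts 138 bases before the start site. The letters are from the reference genome, read on the gene's strand, at chr13:57043756-57044005 (minus strand), chr19:16412731-16412980 (plus) and chr5:104581915-104582164 (plus). The outermost annotated end of Trpc7, at 57043806, lies within the stretch shown.
Trpc7: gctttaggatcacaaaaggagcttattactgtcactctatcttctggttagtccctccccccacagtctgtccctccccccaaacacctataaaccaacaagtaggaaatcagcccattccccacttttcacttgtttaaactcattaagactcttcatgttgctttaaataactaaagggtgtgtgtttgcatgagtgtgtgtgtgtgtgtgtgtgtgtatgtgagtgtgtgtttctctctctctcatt
Gna14: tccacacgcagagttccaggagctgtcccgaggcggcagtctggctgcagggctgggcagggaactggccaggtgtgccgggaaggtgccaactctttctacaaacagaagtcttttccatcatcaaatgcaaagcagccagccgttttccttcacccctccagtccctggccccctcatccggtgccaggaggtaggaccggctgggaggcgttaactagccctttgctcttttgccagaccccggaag
Spp1: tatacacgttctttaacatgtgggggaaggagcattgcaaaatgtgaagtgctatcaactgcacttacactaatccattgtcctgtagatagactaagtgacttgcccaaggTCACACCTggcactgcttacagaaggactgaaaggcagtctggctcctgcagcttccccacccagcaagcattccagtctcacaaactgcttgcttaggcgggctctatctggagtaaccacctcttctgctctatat
A match is a run of letters only, and whether either factor binds there was not tested.

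The gated nuclei split further by Opn4. Of the members, 419 had an Opn4 UMI and 154 did not, and the latter were by the rule those with both Eomes and Tbx20. Median UMIs per nucleus were 8747 in Opn4-positive and 8291.5 in Opn4-negative members. In edgeR's test with the library as a block, 335 (6.86%) of 4884 genes were called higher and 322 (6.59%) lower in Opn4-positive members. By the same limits (8 of 8 libraries, 20 CPM), the 10 that rose most were Gldn, Hs3st2, Gna14, Pcsk5, Adcyap1, Trpc7, Kcnk2, Ephb1, Nr4a3 and Sntg2. Il1rapl2 (log2 fold change 4.16) and Hpse2 (3.02) were also called but were higher in 7 of 8 libraries. The summed counts of Opn4-negative members were small, at 67798 to 276077 UMIs a library.

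Of 9 tested genes of the melanopsin signalling list, 4 rose in Opn4-positive members (Trpc7, Gna14, Trpc6 and Plcb4), 1 fell (Grk3, log2 fold change -0.99) and 4 were not called, where 6.86% of all genes rose and 6.59% fell. Trpc7 was at 331, 381, 307 and 443 CPM in Opn4-positive nuclei of control libraries and 467, 229, 379 and 234 CPM in those of cKO libraries. In Opn4-negative nuclei it was at 147, 109, 20.3, 6.43, 27.3, 73.7, 11.2 and 16.8 CPM in the same order, below every Opn4-positive value. The log2 fold change was 2.76 (SE 0.28, adjusted p = 6.59e-08, edgeR). Gna14 had 557 UMIs in Opn4-positive nuclei and 13 in Opn4-negative nuclei, where 5 libraries had none, and its log2 fold change was 3.76. Gldn had 958 and 10 UMIs (log2 fold change 4.91). Plcb4 also passed here, at 452 ± 18.0 CPM against 253 ± 41.8 CPM (log2 fold change 0.77). Adcyap1 was at 81.3 to 159 CPM against 0 to 29.5 CPM, a log2 fold change of 2.89. Kcnk2, the potassium channel TREK-1, rose by 2.71, Ephb1, an ephrin receptor, by 2.66 and Nr4a3, an activity-induced nuclear receptor, by 2.66 on the log2 scale.

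By those limits the 10 genes most reduced in Opn4-positive nuclei were Cdh6, Syt6, A830018L16Rik, Frmpd3, 4932435O22Rik, Gabrg3, Slc4a4, Slit2, Bcl2 and Lamb1. Cdh6, a cadherin that marks sets of RGCs, was at 27.1 to 78.8 CPM in Opn4-positive and 295 to 1031 CPM in Opn4-negative nuclei, a log2 fold change of -3.58 (SE 0.14, adjusted p = 1.13e-15, edgeR). Gabrg3, a GABA-A receptor subunit, was at 464 ± 93.2 CPM against 2855 ± 448 CPM (log2 fold change -2.71). Slit2, an axon guidance ligand, was at 71.6 ± 28.0 CPM against 359 ± 49.4 CPM (-2.45), and Bcl2, which blocks cell death, had a log2 fold change of -2.43.

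Split by marker pattern, Trpc7 was at 552 ± 215 CPM where all 3 markers were seen, 356 ± 201 CPM with Opn4 and Tbx20, 177 ± 81.3 CPM with Opn4 and Eomes, and 51.4 ± 52.5 CPM with Eomes and Tbx20 (SD, n = 8 libraries). In this order, the mean ± SD of each pattern overlapped that of the next. Outside the rule it was at 52.0 ± 25.9 CPM with Opn4 alone, 22.0 ± 12.2 CPM with Tbx20 alone, 21.9 ± 11.3 CPM with Eomes alone and 2.44 ± 0.520 CPM with none. Cdh6 took another order, at 672 ± 231 CPM with Eomes and Tbx20 and 521 ± 81.6 CPM with Tbx20 alone, against 59.9 ± 38.7 CPM with all 3 markers and 91.4 ± 14.4 CPM with none. Gabrg3 was likewise at 2855 ± 448 CPM with Eomes and Tbx20 and 2516 ± 386 CPM with Tbx20 alone. For both genes the 2 patterns with Tbx20 and no Opn4 differed by less than the larger of their SDs. With all 3 markers Gabrg3 was at 514 CPM. Gna14 and Gldn were at 13.5 and 10.3 CPM with Eomes and Tbx20, 7.77 and 4.97 CPM with Tbx20 alone, and 185 and 314 CPM with all 3. In these genes Opn4-negative members lay nearer to nuclei with Tbx20 alone, so for them the melanopsin-type name rests on the rule only. The 451 nuclei with Tbx20 alone were outside the rule but held 2006 Tbx20 UMIs, close to the 2003 of all gated nuclei.

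**Figure D3:**
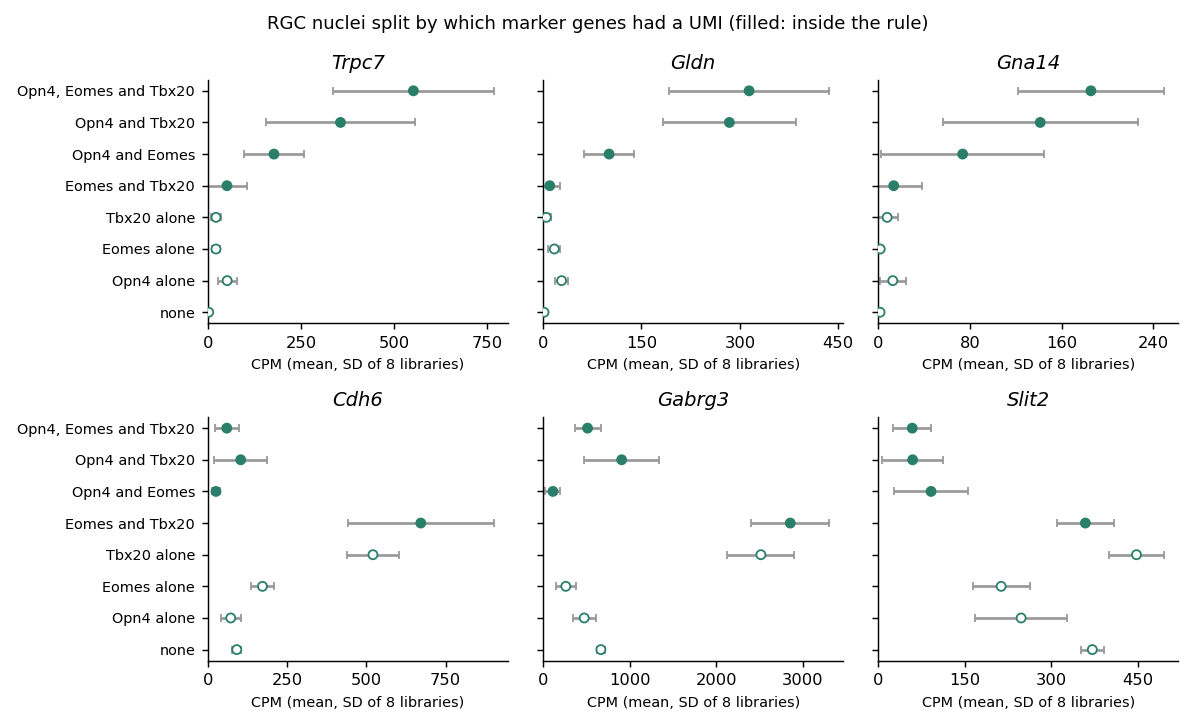
Level of 6 genes (horizontal axes, CPM, mean and SD over 8 libraries) in RGC nuclei split by which of Opn4, Eomes and Tbx20 had a UMI (vertical axis), filled where the pattern was inside the rule. Trpc7, Gldn and Gna14 were highest with Opn4 plus another marker, and Cdh6 and Gabrg3 were highest in the 2 patterns with Tbx20 and no Opn4. Slit2 was lowest in the patterns with Opn4 plus another marker.

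Nucleus by nucleus, 60.2% (95% Wilson interval 56.1 to 64.1%) of the 573 gated nuclei had a UMI of Trpc7, Gna14 or Gldn, against 3.90% of other RGC nuclei. It was 74.2% of Opn4-positive and 22.1% of Opn4-negative members. The share was 16.8% in amacrine-type barcodes, whose median depth was 6298.5 UMIs against 8604 in gated nuclei, and 26.03% in the nuclei with Opn4 alone. Thinned to 2000 UMIs each, the same nuclei gave 42.4% for gated, 54.2% for Opn4-positive, 10.4% for Opn4-negative, 1.28% for other RGC and 4.91% for amacrine-type barcodes. For Gldn the share was 5.19% in Opn4-negative members and 7.53% in amacrine-type barcodes as deposited, and 2.60% and 2.17% after thinning. The intervals cover counting error only.

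Piezo2, the gene deleted in the cKO, was low in these nuclei. It was at 7.72, 0.955, 2.11 and 1.33 CPM in control and 3.26, 6.33, 2.76 and 1.55 CPM in cKO gated nuclei, 15 UMIs in all. Other RGC nuclei had 12.1 to 18.1 CPM in control and 8.76 to 14.8 CPM in cKO libraries. Across genotypes the gated nuclei had less, with a log2 fold change of -2.32 (adjusted p = 7.11e-09, edgeR). That call was lost in counts thinned to 2000 UMIs, with a log2 fold change of -1.49 (adjusted p = 0.620, edgeR). Reads taken near the 3′ end need not fall in the floxed part, so these levels do not check the deletion.

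The share of gated nuclei did not differ between genotypes beyond the spread of the libraries. It was 1.98, 2.64, 3.07 and 3.21% of RGC nuclei in control libraries 1 to 4 and 2.50, 2.12, 2.28 and 2.42% in cKO libraries 10 to 13. The lowest control library lay below all cKO libraries and the other 3 above them. The means were 2.73 ± 0.552% and 2.33 ± 0.167% (SD, n = 4 each), a difference of -0.40 percentage points (p = 0.229, two-sided exact permutation test, where the smallest p possible is 0.0286). The difference was -0.65 without control library 1 (p = 0.0571, exact permutation test), -0.24 without control library 4 and -0.026 in thinned counts. The nuclei were sorted before sequencing, so a share is one of sorted nuclei.

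No gene was called between cKO and control gated nuclei, 0 of 8840 tested (0.0%) by edgeR. An unadjusted p below 0.05 was seen for 487, where a share of about 0.05 of genes reaches it with no difference between groups. DESeq2 also called 0, with 229 below that level. With no filter on low counts edgeR called 21 genes, Gem, Lars2 and A830018L16Rik among them. The libraries of the 2 genotypes did not overlap for 292 genes (3.30%), where a share of about 0.0286 does so with no difference between groups of 4. Trpc7 had a log2 fold change of -0.27, Gna14 0.26, Gldn 0.15, Adcyap1 0.04, Igf1 0.20 and Rasgrp1 0.33 in cKO against control, and none was called.

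The 5 genes with the smallest p were Gem, Impdh1, Lars2, Car10 and A830018L16Rik. Gem was at 12.9, 4.77, 7.39 and 6.66 CPM in control and 45.7, 23.2, 19.3 and 24.8 CPM in cKO libraries (log2 fold change 1.91, SE 0.37, adjusted p = 0.451, edgeR), from 5 to 7 UMIs a control and 11 to 28 UMIs a cKO library. Impdh1, an enzyme of guanine nucleotide synthesis, was at 23.2, 20.05, 25.3 and 25.3 CPM against 50.6, 50.6, 44.1 and 48.0 CPM (log2 fold change 0.99, adjusted p = 0.451, edgeR). In both, every cKO library lay above every control library. The 2 genes were picked for their small p, and the genotypes did not overlap for 3.30% of all genes tested. Impdh1 in the other RGC nuclei was at 28.0 to 38.0 CPM in control and 33.9 to 43.0 CPM in cKO libraries. Impdh1 is also a gene of photoreceptors, whose 9 summed markers were at 204 to 705 CPM in control and 400 to 1312 CPM in cKO gated nuclei. The part of those markers in the result was not tested. Lars2, a mitochondrial leucyl-tRNA synthetase, had a log2 fold change of 0.80, Car10 -0.58 and A830018L16Rik -0.94, with adjusted p of 0.451, 0.601 and 0.601 by edgeR.

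**Figure D4:**
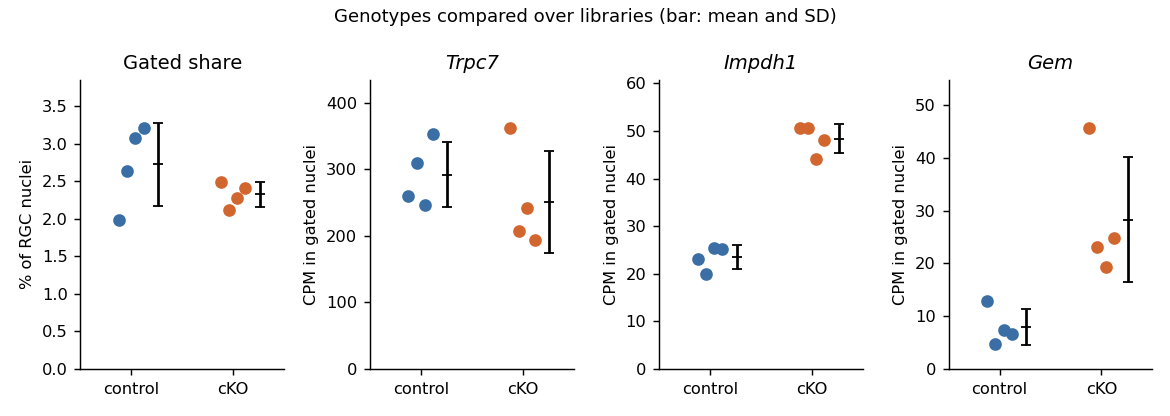
Control (blue) and cKO (orange) libraries, 1 point each, with mean and SD: gated nuclei as a percentage of RGC nuclei, and the level of Trpc7, Impdh1 and Gem in gated nuclei in CPM. The genotypes overlap for the share and for Trpc7 and do not overlap for Impdh1 and Gem, which were picked for their small p and did not pass adjustment.

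A test of whether the genotypes differed more in gated than in other RGC nuclei called 3 of 17126 genes (0.0175%) by edgeR. Il1rapl2, an interleukin-1 receptor accessory protein found at synapses, was at 999, 1300.1, 822 and 1406 CPM in control gated nuclei and 854, 538, 295 and 1057 CPM in cKO gated nuclei. The genotypes overlapped in gated nuclei. In the other RGC nuclei it was at 94.6 to 226 CPM in control and 176 to 235 CPM in cKO libraries. The difference of the 2 genotype effects was -1.17 on the log2 scale (SE 0.19, adjusted p = 0.000447, edgeR). Tll1, a metalloprotease, had a difference of -1.002 and Rnf217, a ubiquitin ligase, 0.66. DESeq2 called 0 genes in this test, with 405 at an unadjusted p below 0.05, so none of the 3 rests on both tools. The calls also fell to 0 with a minimum of 5000 UMIs and with thinning, and leaving out 1 library gave 2 without control library 4, 13 without control library 3 and 6 to 9 without any of the others. The difference of Il1rapl2 turned to 1.44 with all 3 marker genes required and to 9.56 in thinned counts, and that of Tll1 to 0.0903 and 1.72. These fits held fewer libraries, as those with 10 gated nuclei or fewer were left out. Control library 1 was missing from the first, and control library 4 and cKO libraries 10 and 13 from the second. Tll1 also lost its call without control library 4. Rnf217 kept its direction, at 0.20 to 0.80, but lost its call in 8 of 17 alternatives.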

How the data were processed

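Raw counts of UMIs, as whole numbers over all detected barcodes, were deposited by the authors for 8 libraries. Per the labels and methods, nuclei were sorted for NeuN and RBPMS, libraries were made with the 10x 3′ v3.1 kit, and reads were counted with Cell Ranger 7.0.0 on GRCm39. Whether introns and strand were used in counting is not given in the sources used here. The background removal and doublet filters of the study's own analysis are not in these counts.

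The rule was applied to each barcode, counts were summed per library, and sums were tested with edgeR 4.0.16 (TMM scaling, low-count filter, quasi-likelihood test, gene-wise over all tested genes), with DESeq2 1.42.0 as an alternative, in R 4.3.3. The tests of gated against other nuclei, of Opn4 status and of the interaction of gate and genotype had the library as a block. A library entered a fit only with more than 10 gated nuclei, or more than 10 of each Opn4 status where that was compared. Shares were compared by an exact permutation test over libraries. CPM is counts per 1000000 UMIs of the sum. Scrublet in scanpy 1.11.5 scored 33687 barcodes, and its 1183 highest, 23 of them gated, were removed only as an alternative. The scripts were tested on simulated data. Named genes were the listed genes, the 10 largest called changes each way in the same direction in all libraries and at 20 CPM or more, and, with no call, the 5 smallest p. The members, lists and rules were chosen with earlier results of these data known. P-values between genotypes in gated nuclei and for the shares measure the spread between libraries, each of 6 pooled retinae. Where the library was a block, they measure how far the difference within a library varied from library to library. Some genes of the lists are not reported here. Gene starts were from GENCODE vM39. Bmal1 was listed under Arntl and Tbxt under T.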

Additional observations from a re-analysis of the deposited data

Results flagged for a closer look

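Hpse2 in gated nuclei of cKO library 10 was at 114 CPM, apart from the other 3 cKO libraries at 66.2 to 67.5 CPM. It was the 1 such value among 38 groups of 4 libraries examined, and about 1 in 20 is flagged by chance. Control libraries ranged from 54.9 to 105 CPM.

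For 3 genes the difference between genotypes in gated nuclei was itself different from that in other RGC nuclei, by the edgeR interaction test: Il1rapl2 by -1.17, Tll1 by -1.002 and Rnf217 by 0.66 on the log2 scale. None of the 3 kept its call in every alternative, and Rnf217 lost it in 8 of 17. Tll1 was at 209, 116, 90.7 and 249 CPM in control and 66.9, 67.5, 51.0 and 132 CPM in cKO gated nuclei, and Rnf217 at 139, 132, 133 and 121 CPM against 171, 137, 244 and 262 CPM. All 3 were also higher in Opn4-positive than in Opn4-negative members (log2 fold changes 4.16 for Il1rapl2, 2.48 for Tll1 and 0.84 for Rnf217), and 217 of 296 control and 202 of 277 cKO members were Opn4-positive. The part of that difference in the result was not tested.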

How the results depend on the processing

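Not every named gene was followed through the alternatives, and the losses named below are among those followed. In the comparison with other RGC nuclei 32 of 48 kept their direction and side of the threshold wherever they were tested. All 20 followed in the comparison by Opn4 status did so too. Gldnos, Gna14, Hpse2, Entpd1, Cd1d1, Colec12 and Gem were tested in 20 of 21 alternatives, and Nr4a3 in 15 and Frmpd3 in 14 of 16. Control library 4 and cKO libraries 10 and 13 had no more than 10 gated nuclei in thinned counts and were out of those fits. Fewer UMIs and fewer libraries were not told apart there. Most losses came with thinning to 2000 UMIs, which left 110 gated nuclei and called 758 genes in place of 2336. Under it Gm43507, Nmb, Serpine2, Drd1, Adcyap1r1, Pou4f1, Isl2, Ebf2, Piezo2, Npas2, Hlf, Per1, Mbp and Onecut1 were no longer called, Plcb4 had a log2 fold change of -0.22 and Hcn3 of -1.51, the interaction of Il1rapl2 was 9.56 and that of Tll1 1.72, and the comparison by Opn4 status could not be fitted. With no filter on low counts 21 genes were called between genotypes, Gem, Lars2 and A830018L16Rik among them, 1032 by Opn4 status (683 higher, 349 lower) and 11 for the interaction. In 2 alternatives added after the data were seen, other nuclei with no marker UMI gave 2386 calls and a gate of 1 Opn4 UMI or more gave 1834, without Serpine2, Drd1 and Per1. The interaction calls fell to 0 with a minimum of 5000 UMIs, with thinning and with DESeq2. With all 3 marker genes required they were 17, none shared with the 3 named, and Il1rapl2 was then at 1.44 and Tll1 at 0.0903. Control library 1, with 10 such nuclei, was out of that fit. Rnf217 lost its call in 8 of 17 alternatives, among them leaving out control library 2 or 4 or cKO library 12 or 13. Leaving out 1 library gave 2 to 13 interaction calls: 8, 7, 13 and 2 without control libraries 1 to 4, and 9, 6, 8 and 6 without cKO libraries 10 to 13. For the share of gated nuclei the difference stayed negative and past no threshold. Without 1 library it was from -0.65 (control library 1, p = 0.0571, exact permutation test) to -0.24 percentage points (control library 4), and it was -0.026 when thinned, -0.048 with all 3 marker genes required and -0.067 with the Opn4 gate. The causes were not tested. Each library gave 50 to 96 gated nuclei, which limits the UMIs behind a gene. Free RNA was not removed from the counts. No paired analysis was possible because the genotypes share no replicate number.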

Other observations

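Diacylglycerol, the product of the phospholipase step, is sensed by protein kinase C and RasGRP proteins and removed by diacylglycerol kinases. These families, taken whole after the values were seen, held a few large rises in gated nuclei. Of 9 protein kinase C genes tested, Prkcq (log2 fold change 3.73), Prkcd (3.33) and Prkca (0.83) rose, and Prkcb (-0.79) and Prkch (-2.51) fell, where 7.57% of all genes were called higher and 7.16% lower. Of 3 RasGRP genes tested, 1 was called, Rasgrp1, which rose. Prkcq was at 200 ± 54.0 CPM against 15.2 ± 2.23 CPM and Prkcd at 61.3 ± 17.8 CPM against 5.74 ± 0.602 CPM (SD, n = 8 libraries). Of 9 diacylglycerol kinases tested, Dgkg (3.68), Dgkb (0.95) and Dgka (0.57) rose and none fell. Prkcq, Prkcd and Dgkg were also higher in Opn4-positive than in Opn4-negative members, by 2.29, 2.10 and 1.93 on the log2 scale, whereas Dgkb was lower (-0.55) and Prkca (-0.19) was not called.

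Collagen genes, chosen in the same way, moved in both directions, with 10 of 33 tested called higher and 7 called lower, against the same 7.57% and 7.16%, and a median log2 fold change of -0.02. Col5a1 (log2 fold change 3.54), Col6a4 (3.52), Col9a1 (3.43) and Col6a6 (3.27) rose most, and Col12a1 (-2.92) and Col19a1 (-2.42) fell most. Col9a1 was at 103 ± 30.5 CPM against 9.59 ± 3.95 CPM and was higher in all 8 libraries.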
